A study of Mus musculus with 12 samples.

Results

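Tiparp, Csrnp1, Arl4d, Plekhf1, Wisp1, Tph2, Pabpc5 and Anxa9 are 8 of the 17202 genes in the table of normalized counts from the mouse cortex. They were selected on their low VEH-CD values relative to VEH-WT in a deposited table of 100 genes, where they stand near the head of the 50 genes listed as lower in VEH-treated CD mice, and their rows of normalized counts were found by gene symbol. Ordered by the VEH-CD mean of that table, Pabpc5, Plekhf1, Anxa9, Tph2, Arl4d, Tiparp and Csrnp1 hold places 3 to 9 and Wisp1 holds place 13. They are therefore not its lowest genes, since Ifi203 (0.349 of the VEH-WT mean) and Sik1 (0.387) stand before them. Lyve1 (0.461), Spry4 (0.461) and Sgk1 (0.465) lie between Csrnp1 and Wisp1, and Serinc2 (0.480) follows Wisp1. With all 3 mice of each group, the same 50 genes placed the 8 between 5 (Arl4d) and 41 (Anxa9). Because values of VEH-CD against VEH-WT mice chose these genes, the 8 genes are described in that comparison without a test, and so they are in every comparison that uses VEH-treated mice.

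The cortex of 12 male mice was profiled by RNA sequencing, with 3 mice in each of 4 groups on a C57Bl6 background. The study's methods name the isolated tissue as frontal cortex. VEH-CD and VERCUR-CD mice carried the complete deletion (CD), a heterozygous loss of the chromosome 5 interval from Gtf2i to Fkbp6 that models Williams–Beuren syndrome, and VEH-WT and VERCUR-WT mice were wild type. VEH-WT and VEH-CD mice are named untreated in the labels and received vehicle according to the study's methods. VERCUR-WT and VERCUR-CD mice drank curcumin, a phenol of turmeric, at 60 mg/kg/day by the labels. They drank it together with verapamil, a calcium channel blocker, at 10 mg/kg/day, starting at 8 weeks of age for 1 month. For all 12 mice, vehicle mice included, the labels give an end at 16 weeks of age. The methods of the study give a lower verapamil dose and an earlier end. The CD line had been crossed with mice whose Thy1-driven YFP transgene labels pyramidal neurons, and the deletion was present in every tissue, not in the brain alone.

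A normalized count is the number of reads counted on a gene divided by 1 factor per mouse. Counted reads ranged from 40290000 to 56480000 per mouse, and 1 read was worth 0.862 to 1.198 normalized counts. The median of 19 deleted genes lay at 0.959 to 1.04 of the VEH-WT mean in the 6 WT mice and at 0.468 to 0.530 in the 6 CD mice, and no mouse went against its genotype label. All 7 markers of cortical excitatory neurons were present, with summed normalized counts of 115200 to 135400 in all 12 mice. One library stood apart in several of the 8 genes, the mouse VERCUR-WT 2. It had the lowest value of the 12 mice for 4 of the 8 genes, against 9.34% of all genes tested, and the comparisons of co-treated mice are given with and without it. Summed markers of striatal neurons, a neighbouring tissue, ranged from 7343 to 32830 over the 12 mice and stood at 7802 in VERCUR-WT 2. Their part in the values below was not tested.

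The 8 genes belong to no single pathway. Tiparp, Csrnp1 and Arl4d code for an ADP-ribosyltransferase, a nuclear transcriptional activator and a small GTPase, and transcripts of this kind can respond quickly to stimulation of a cell. Immediate early genes such as Arc, Fos and Egr1 are the best known of these in cortical neurons, where synaptic activity and calcium entry switch them on within minutes without new protein synthesis. Wisp1 codes for a secreted matricellular protein, and Tph2 for the rate-limiting enzyme of serotonin synthesis in the brain, which is made mainly by raphe neurons outside the cortex.

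RefSeq promoters on GRCm38.p6 were at hand for 6 of the 8 genes, all but Wisp1 and Pabpc5, as 10 stretches that run from 250 bases before a start to 50 bases after it. Those of Tiparp, Csrnp1, Arl4d and Plekhf1 are shown because these genes varied together over the mice. Csrnp1 has 4 listed starts, of which the 2 with several motif matches are shown. At the others TGACG was the only motif matched. Capitals mark every match, on either strand, to the motifs searched: the cyclic AMP response element TGACGTCA and its short form TGACG, the AP-1 site TGANTCA, the xenobiotic response element core GCGTG, the serum response element, the E-box CACGTG, the TCF and LEF site TTCAAAG, the glucocorticoid response element and the TATA box TATAAA. Each sequence runs 5′ to 3′ on the strand of the gene.
Tiparp, chr3:65528197-65528496, plus strand: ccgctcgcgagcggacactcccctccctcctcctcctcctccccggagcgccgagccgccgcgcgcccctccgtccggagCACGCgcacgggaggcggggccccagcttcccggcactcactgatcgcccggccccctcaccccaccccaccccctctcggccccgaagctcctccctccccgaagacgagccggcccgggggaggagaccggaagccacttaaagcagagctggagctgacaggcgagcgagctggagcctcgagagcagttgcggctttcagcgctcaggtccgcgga
Csrnp1, chr9:119983730-119984029, minus strand: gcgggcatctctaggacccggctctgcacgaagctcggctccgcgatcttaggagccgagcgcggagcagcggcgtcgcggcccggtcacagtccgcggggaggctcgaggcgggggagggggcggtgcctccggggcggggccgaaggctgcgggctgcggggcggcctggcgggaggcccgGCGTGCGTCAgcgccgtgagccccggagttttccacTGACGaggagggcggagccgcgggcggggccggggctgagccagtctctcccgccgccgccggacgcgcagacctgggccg
Csrnp1, chr9:119982974-119983273, minus strand: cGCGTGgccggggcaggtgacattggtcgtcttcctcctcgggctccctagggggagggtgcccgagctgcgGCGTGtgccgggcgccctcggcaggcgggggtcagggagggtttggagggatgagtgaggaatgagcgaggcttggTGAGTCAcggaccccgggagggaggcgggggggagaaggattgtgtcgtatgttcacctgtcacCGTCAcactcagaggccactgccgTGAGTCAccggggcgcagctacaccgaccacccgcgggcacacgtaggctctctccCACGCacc
Arl4d, chr11:101665291-101665590, plus strand: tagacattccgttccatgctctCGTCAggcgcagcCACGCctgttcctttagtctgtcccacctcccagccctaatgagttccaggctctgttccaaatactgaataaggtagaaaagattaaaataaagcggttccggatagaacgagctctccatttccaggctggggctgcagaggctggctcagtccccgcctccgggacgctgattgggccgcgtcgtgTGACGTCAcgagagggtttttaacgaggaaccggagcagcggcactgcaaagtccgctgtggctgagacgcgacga
Plekhf1, chr7:38227945-38228244, minus strand: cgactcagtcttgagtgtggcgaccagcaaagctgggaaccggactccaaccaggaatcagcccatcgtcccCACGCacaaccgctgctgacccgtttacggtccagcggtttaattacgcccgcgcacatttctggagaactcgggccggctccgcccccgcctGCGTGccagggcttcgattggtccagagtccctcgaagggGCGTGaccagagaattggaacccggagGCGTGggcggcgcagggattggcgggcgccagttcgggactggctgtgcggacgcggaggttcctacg
The full cyclic AMP response element, the site bound by CREB, was present only in the Arl4d promoter among the 10, where it begins 26 bases before the start and contains the short form on both strands. It is held by 588 of the 32851 promoters in the table (1.79%). The short form was found in 6 of the 10 stretches, at all 4 starts of Csrnp1 and in Arl4d and Anxa9. It is held by 20.8% of all promoters. An AP-1 site, the target of Fos and Jun dimers, occurred at 1 Csrnp1 start (7.81% of all promoters). The xenobiotic response element core, bound by the aryl hydrocarbon receptor, was present in 6 of the 10 stretches and in 32.4% of all promoters. These 6 belong to Tiparp, Csrnp1, Arl4d, Plekhf1 and Anxa9, and some starts of Csrnp1 and Anxa9 lack it. The TATA box was found only in Tph2, beginning 30 bases before its start (13.6% of all promoters). The serum response element was searched only as 1 fixed sequence of 10 bases, held by 0.0639% of all promoters. That sequence was not found in these windows, and other forms of the element were not searched, so its absence cannot be read from this. The glucocorticoid response element was searched as 1 pattern of 13 bases (0.475%), and that pattern was not found. The E-box (7.15%) and the TCF and LEF site (5.14%), in the forms given above, were not found either.

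Tiparp (ENSMUSG00000034640.9, chromosome 3, 65528410 to 65555518 on GRCm38) codes for a mono-ADP-ribosyltransferase that is induced by, and represses, the aryl hydrocarbon receptor. Its normalized counts were 702, 1017 and 973 in the VEH-WT mice and 356, 422 and 436 in the VEH-CD mice. The VERCUR-WT mice had 586, 345 and 740, and the VERCUR-CD mice 654, 656 and 577. All 3 VEH-CD mice lay below all 3 VEH-WT mice, with means of 405 ± 42.5 and 897 ± 171 (SD, n = 3 each) and a ratio of 0.451. The VERCUR-CD mice lay between these groups without overlap with either, at a mean of 629 ± 45.1 or 0.702 of the VEH-WT mean. The VERCUR-WT mice spanned both, with the lowest value of the 12 in VERCUR-WT 2.

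Csrnp1 (ENSMUSG00000032515.8, chromosome 9, 119971163 to 119984658) codes for a cysteine and serine rich nuclear protein that activates transcription and was first described as induced by axin. The VEH-WT mice had normalized counts of 701, 949 and 802 against 348, 393 and 553 in the VEH-CD mice. Under VERCUR the WT mice had 622, 231 and 709, and the CD mice 642, 536 and 613. The vehicle groups did not overlap and had means of 817 ± 125 and 432 ± 108, a ratio of 0.528. The VERCUR-CD mean, 597 ± 54.9, was 0.731 of the VEH-WT mean, and its lowest mouse stood below the highest VEH-CD mouse.

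Arl4d (ENSMUSG00000034936.2, chromosome 11, 101665541 to 101667832) codes for an ARF-like GTPase that recruits cytohesins to the plasma membrane and so acts on ARF6 and the actin cytoskeleton. Its normalized counts were 1237, 1614 and 1655 in the VEH-WT mice and 534, 687 and 776 in the VEH-CD mice. The VERCUR-WT mice had 900, 488 and 1316, and the VERCUR-CD mice 1055, 622 and 956. The vehicle means of 1502 ± 230.2 and 666 ± 123 gave the lowest ratio of the 8 genes, 0.443, again without overlap. The VERCUR-CD mice, at 0.584 of the VEH-WT mean, lay below every VEH-WT mouse and overlapped the VEH-CD mice through VERCUR-CD 2.

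Plekhf1 (ENSMUSG00000074170.5, chromosome 7, 38216972 to 38228016) codes for a PH and FYVE domain protein of endosomes and lysosomes. Normalized counts were 154, 229 and 268 in the VEH-WT mice and 106, 95.4 and 103 in the VEH-CD mice. Values in the VERCUR-WT mice were 73.6, 66.7 and 163, and in the VERCUR-CD mice 117, 108 and 114. Both CD groups were tight, with coefficients of variation (CV) of 5.51% and 4.03%, and did not overlap with each other or with the VEH-WT mice. The highest VEH-CD mouse (93 reads) and the lowest VERCUR-CD mouse (120 reads) lay close together. Their exact Poisson 95% intervals, 85.8 to 130 and 89.5 to 129 normalized counts, overlapped. The VEH-CD and VERCUR-CD means were 0.469 and 0.521 of the VEH-WT mean of 217 ± 58.0, and the VERCUR-WT mean was as low, at 0.467.

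Wisp1 (ENSMUSG00000005124.10, chromosome 15, 66891320 to 66923201), also named Ccn4, codes for a matricellular protein of the CCN family and is a known target of Wnt signalling. Its normalized counts were 342, 421 and 249 in the VEH-WT mice and 159, 283 and 200.04 in the VEH-CD mice. The VERCUR-WT mice had 245, 209 and 224, and the VERCUR-CD mice 247, 232 and 302. The vehicle groups overlapped, since VEH-CD 2 stood above VEH-WT 3, and their means of 338 ± 86.1 and 214 ± 63.0 gave a ratio of 0.633. Wisp1 was the only gene of the 8 whose VERCUR-WT mice all lay below the VEH-WT mice, which holds for 5.25% of all genes tested.

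Tph2 (ENSMUSG00000006764.8, chromosome 10, 115078641 to 115185022) was read at a low level, from 16 to 60 counted reads per mouse. In normalized counts these were 40.4, 31.2 and 52.1 in the VEH-WT mice and 35.4, 18.5 and 20.4 in the VEH-CD mice. Under VERCUR the WT mice had 18.99, 38.0 and 31.9, and the VERCUR-CD mice 32.3, 26.1 and 17.3. The vehicle groups overlapped through VEH-CD 1, which stood above VEH-WT 2, and the ratio of their means was 0.601. Of the 8 markers of serotonin neurons only Gata2 and Ddc, which other brain cells also use, were present in the table, and the defining genes Fev, Slc6a4, Lmx1b and Slc18a2 were not listed there. The summed level of the 2 markers was 371 to 398 in VEH-WT, 322 to 454 in VEH-CD, 322 to 361 in VERCUR-WT and 377 to 430.1 in VERCUR-CD mice. In cortical tissue with its cell types mixed, fewer cells of a type and less RNA per cell cannot be told apart.

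Pabpc5 (ENSMUSG00000034732.4, chromosome X, 119927196 to 119930165) codes for a cytoplasmic poly(A)-binding protein, a family that binds the tails of messenger RNAs and acts on their translation and stability. Its normalized counts were 20.2, 21.9 and 24.3 in the VEH-WT mice and 8.00, 9.71 and 14.4 in the VEH-CD mice. The VERCUR-WT mice had 27.3, 26.9 and 26.7, and the VERCUR-CD mice 14.8, 47.7 and 17.3. The vehicle groups did not overlap and their means of 22.1 ± 2.09 and 10.7 ± 3.30 gave a ratio of 0.483, but the VEH-CD values rest on 7, 11 and 12 counted reads. The exact Poisson 95% interval of the highest VEH-CD mouse, 6.20 to 21.0 reads, and that of the lowest VEH-WT mouse, 10.7 to 28.4 reads, overlapped. VERCUR-CD 2 had 53 reads, the highest value of the 12 mice, where VERCUR-CD 1 and 3 had 17 and 18.

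Anxa9 (ENSMUSG00000015702.13, chromosome 3, 95296096 to 95307176) belongs to the annexins, proteins that bind phospholipids, most of them in the presence of calcium, and had the lowest level of the 8 genes. Normalized counts of Anxa9 were 14.6, 8.08 and 12.2 in the VEH-WT mice and 5.71, 5.30 and 15.6 in the VEH-CD mice. Values in the VERCUR-WT mice were 11.9, 24.1 and 12.9, and in the VERCUR-CD mice 18.3, 8.99 and 19.2. The highest of the 6 vehicle mice was thus a CD mouse, and the ratio of the means was 0.763, with a CV of 65.6% among the VEH-CD mice. The 6 vehicle values rest on 5 to 14 counted reads. Poisson intervals cover counting error only, since the reads carried no molecular identifiers.

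**Figure D1:**
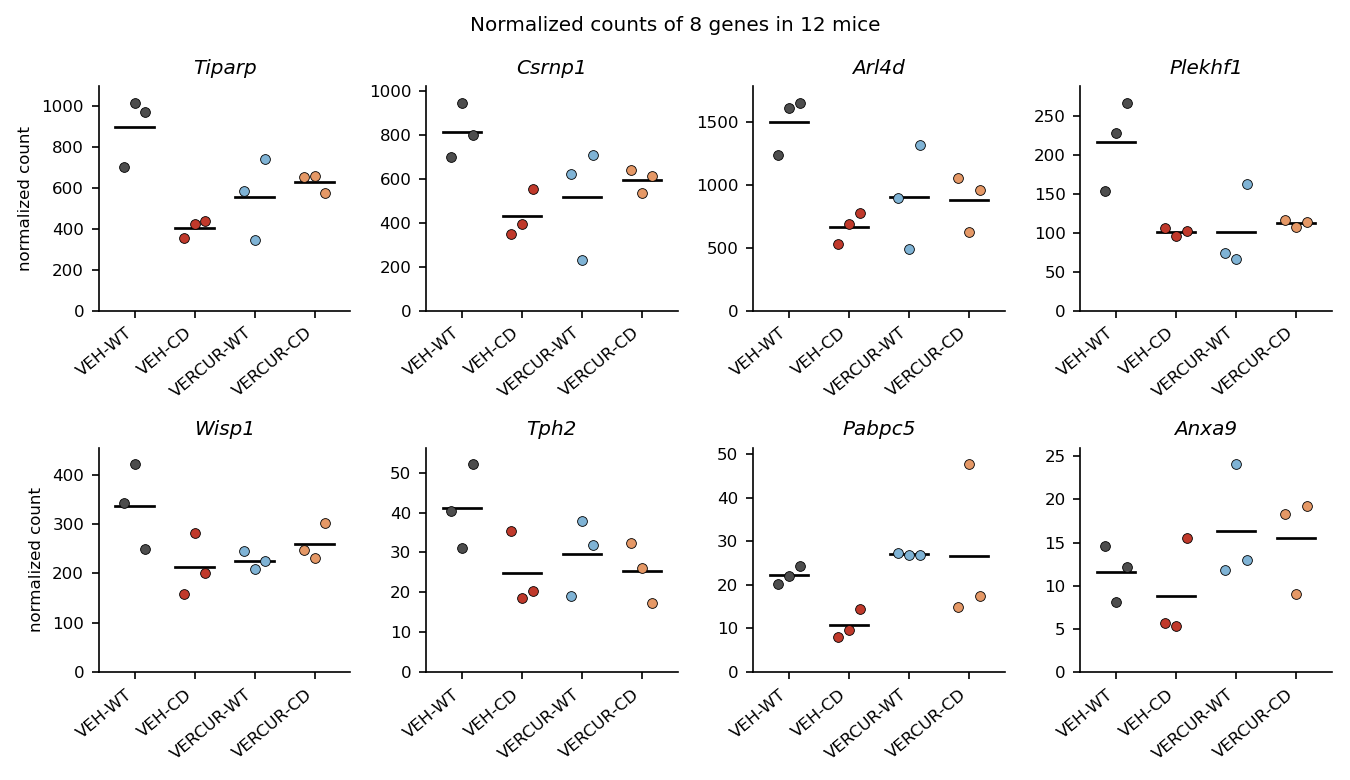
Normalized counts (vertical axis, linear from 0) of the 8 genes in each of 12 mice, by group (horizontal axis). Points are mice and bars are group means over 3 mice. In Tiparp, Csrnp1, Arl4d, Plekhf1 and Pabpc5 the VEH-CD mice sit below all VEH-WT mice, and in Wisp1, Tph2 and Anxa9 the groups overlap.

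The VEH-CD mice lay below the VEH-WT mice without overlap in 5 of the 8 genes, where 11.4% of all genes tested did so. This comparison chose the genes, and nothing is read from the count. In the limma fit of the same comparison, 35 of 17111 genes (0.205%) were called lower. The VERCUR-CD mice lay below the VEH-WT mice without overlap in Tiparp, Csrnp1, Arl4d and Plekhf1 (4 of 8, with 7.33% of all genes), and above the VEH-CD mice in Tiparp, Plekhf1 and Pabpc5 (3 of 8, with 3.71% of all genes). These comparisons share VEH-treated mice with the one that chose the genes, and so were not tested. A CV of at least 20% was found in 4 of the 8 genes among VEH-WT mice (15.5% of all genes), 5 among VEH-CD mice (14.9%), 6 among VERCUR-WT mice (17.4%) and 4 among VERCUR-CD mice (19.5%). Per kilobase of exon, mean VEH-WT levels in normalized counts ran from 1087 for Arl4d through 235 for Csrnp1, 206 for Tiparp, 60.7 for Wisp1, 41.2 for Plekhf1, 14.3 for Tph2 and 9.10 for Pabpc5 to 5.60 for Anxa9.

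The deposited table gives each of these genes 9 positions, for 3 WT, 3 CD and 3 treated CD mice, as values scaled so that the VEH-WT mice that were kept average 1, and leaves single positions blank. Rebuilt from the normalized counts with the same mice left out, every position of the 8 genes came within 4.96% of its deposited value. For Tiparp no mouse was blank, and the VEH-CD value was 0.457 in the table and 0.451 over all 3 mice. Each of the other 7 genes had a blank, and over the 8 genes 13 of 24 groups of 3 mice did.

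Among the VEH-WT mice a blank stood in Plekhf1, Wisp1, Tph2 and Anxa9, and in all 4 the blank mouse was the lowest of its group. Among the VEH-CD mice a blank stood in Csrnp1, Wisp1, Tph2, Pabpc5 and Anxa9, and in all 5 the blank mouse was the highest of its group. The CV over all 3 mice was 24.98% to 65.6% in the VEH-CD groups with a blank and at most 18.4% in those without, on either side of the limit of 20% that the study's methods name. In 12 of the 13 groups the blank mouse was the one farthest from the median. The exception was Tph2 in VEH-WT mice, where the blank VEH-WT 2 (31.2) lay nearer the median of 40.4 than VEH-WT 3 (52.1), which was kept.

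With all 3 mice in each group, the VEH-CD value was closer to that of VEH-WT mice in all 6 genes with a vehicle blank. The ranks of those blanks fix this direction, and only its size is described here. Anxa9 differed most, at 0.418 in the table and 0.763 over all mice. There the blank VEH-CD 3 (15.6) had been the highest and the blank VEH-WT 2 (8.08) the lowest of the group. Tph2 stood at 0.428 in the table and 0.601 over all mice, and Wisp1 at 0.473 and 0.633. Csrnp1 (0.460 and 0.528), Pabpc5 (0.405 and 0.483) and Plekhf1 (0.415 and 0.469) differed less, and Arl4d, which like Tiparp has no blank in the vehicle groups, stood at 0.440 and 0.443. The median over the 8 genes was 0.434 in the table and 0.505 over all mice, and 7 of the 8 remained below 0.75, all but Anxa9.

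**Figure D2:**
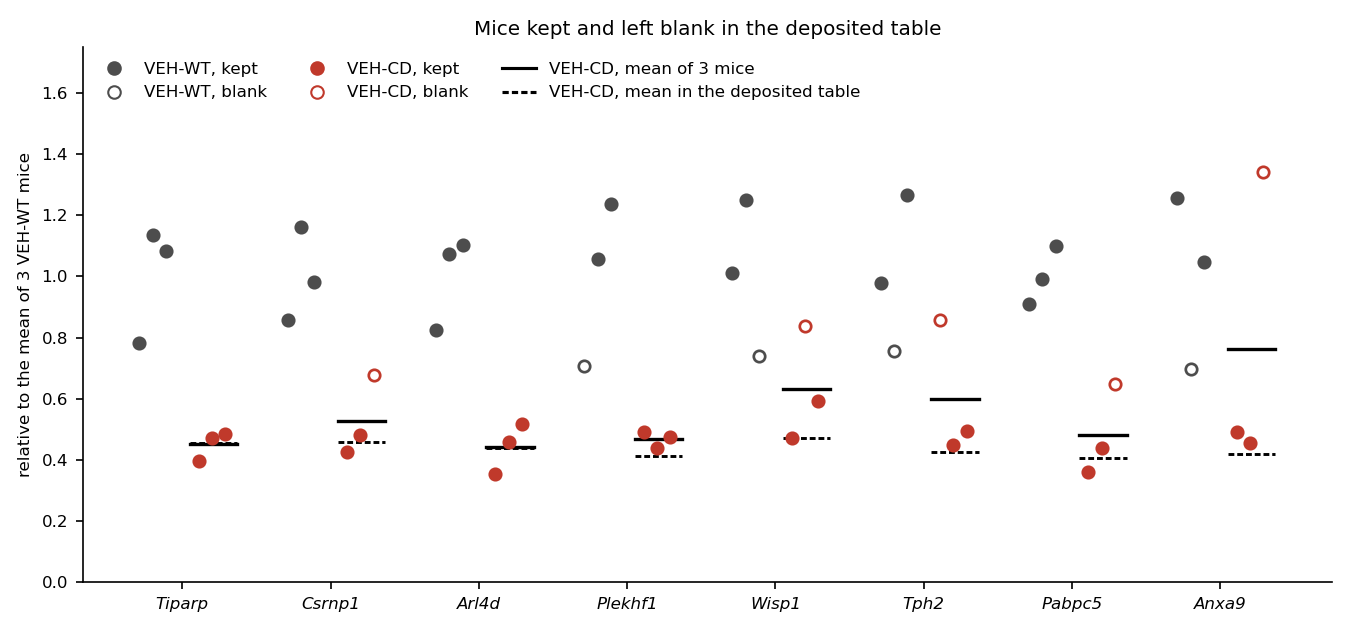
Normalized counts of the 6 vehicle mice (points) as a share of the VEH-WT mean over 3 mice (vertical axis) for the 8 genes (horizontal axis). Filled points are mice kept in the deposited table and open points are mice left blank, the solid bar is the VEH-CD mean over 3 mice and the dashed bar is the VEH-CD mean of the deposited table. Every open VEH-CD point is the highest of its group and every open VEH-WT point the lowest.

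In the treated CD mice the blank was the lowest of its group in Arl4d, Tph2 and Anxa9 and the highest in Pabpc5. Pabpc5 stood at 0.732 of the VEH-WT mean in the table and at 1.201 over all mice, as VERCUR-CD 2 (47.7) was left blank. Arl4d stood at 0.664 in the table and 0.584 over all mice, where VERCUR-CD 2 (622) was the blank. The other 6 genes stood at 0.697 and 0.702 (Tiparp), 0.727 and 0.731 (Csrnp1), 0.452 and 0.521 (Plekhf1), 0.675 and 0.771 (Wisp1), 0.631 and 0.612 (Tph2) and 1.42 and 1.34 (Anxa9).

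In the vehicle groups, most blanks in the rest of the table were arranged in the same way. In the 42 other genes listed as lower, 25 of 29 blanks among VEH-CD mice were the highest mouse and 21 of 28 among VEH-WT mice the lowest. In the 50 genes listed as higher the order was the other way round, with 21 of 24 blanks among VEH-CD mice being the lowest mouse and 29 of 31 among VEH-WT mice the highest. Among treated CD mice, 8 blanks were the highest and 9 the lowest mouse in the other lower genes. In the higher genes these were 5 and 13. There the 20% limit did not always hold, since Gm14403 (CV 22.7%) had no blank and Plk3 (16.9%) had one. For Meox1, a higher gene, a rebuilt position was off by 73.6%. Where a vehicle group had a blank, the value over all 3 mice was closer to that of VEH-WT mice in 29 of 39 other lower genes and in 38 of 41 higher genes. In genes with no such blank it differed from the table by a median factor of 0.988 in both kinds. These genes entered the table by the same comparison, so the counts describe the table and were not tested.

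**Figure D3:**
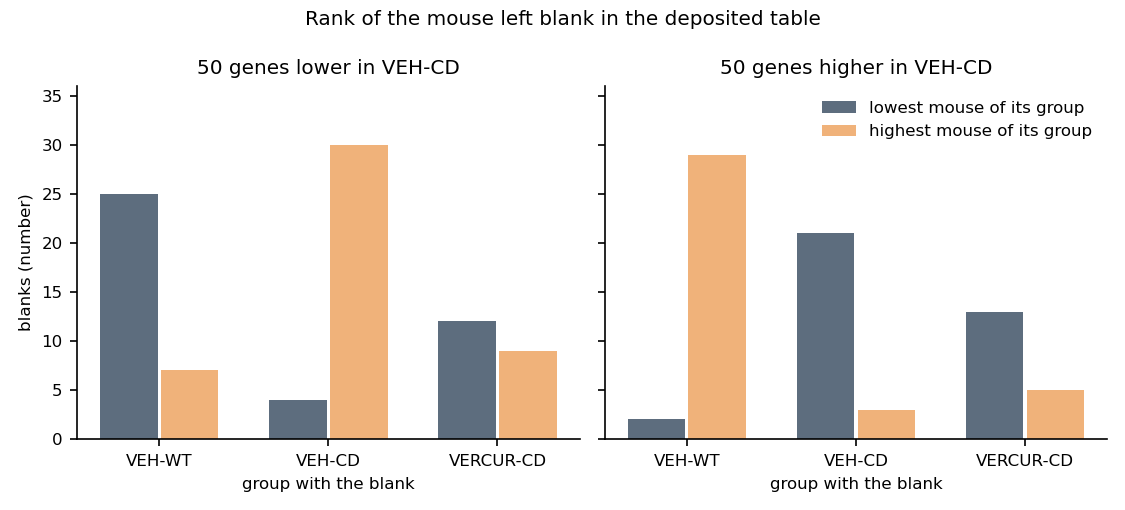
Number of blanks in the deposited table (vertical axis) whose mouse was the lowest or the highest of its group in the normalized counts, by group (horizontal axis), for the 50 lower and the 50 higher genes. Among the lower genes 30 of 34 VEH-CD blanks were the highest mouse, and among the higher genes 21 of 24 were the lowest.

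The 6 co-treated mice took no part in the choice of genes, and with them the difference between CD and WT mice under VERCUR could be tested. None of the 8 was called: limma gave an adjusted p of 0.9999 for each, 0 had an unadjusted p under 0.05 (the lowest was 0.301, for Tiparp), and no other tool was run. Over all genes tested, 25 of 17111 (0.146%) were called in this comparison, 21 of them lower (0.123%), and 4.10% had an unadjusted p under 0.05. On the log2(normalized count + 1) scale, VERCUR-CD minus VERCUR-WT was below 0 in 3 of the 8 genes and above 0 in 5, with a median of 0.12 where all genes had a median of 0.0044. No gene of the 8 had VERCUR-CD mice below all VERCUR-WT mice, which 3.83% of all genes tested had, and none had VERCUR-CD mice above all VERCUR-WT mice (3.91%).

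Tiparp differed by 0.24 (95% interval -0.24 to 0.73), Csrnp1 by 0.35 (-0.36 to 1.06) and Arl4d by 0.04 (-0.61 to 0.69) on the log2 scale. Plekhf1 differed by 0.28 (-0.34 to 0.89) and Wisp1 by 0.20 (-0.26 to 0.66). Tph2, at -0.21 (-0.94 to 0.52), Pabpc5, at -0.21 (-1.01 to 0.59), and Anxa9, at -0.07 (-1.03 to 0.90), were the 3 lower genes. The vehicle differences of the same fit, given as a description, were -1.13 for Tiparp, -0.94 for Csrnp1, -1.18 for Arl4d and -1.05 for Plekhf1. They were -0.66 for Wisp1, -0.74 for Tph2, -1.02 for Pabpc5 and -0.47 for Anxa9. The difference between both genotype effects was not tested, since the vehicle values chose the genes.

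Without VERCUR-WT 2 the directions were 5 lower and 3 higher with a median of -0.04, and again 0 of the 8 had an unadjusted p under 0.05 (lowest 0.178, adjusted p 0.9999 by limma) and 0 had groups that did not overlap. Tiparp then stood at -0.07, Csrnp1 at -0.16, Arl4d at -0.35 and Anxa9 at 0.23, each with its sign turned. Plekhf1 stood at 0.04, Wisp1 at 0.14, Tph2 at -0.01 and Pabpc5 at -0.21. Leaving out other single mice turned the sign of Arl4d (-0.11 without VERCUR-CD 1 and -0.04 without VERCUR-CD 3), Anxa9 (0.26 without VERCUR-CD 2), Pabpc5 (0.09 without VERCUR-CD 1) and Tph2 (0.03 without VERCUR-CD 3). Leaving it out moved the VERCUR-WT mean, as a share of the VEH-WT mean, from 0.621 to 0.739 for Tiparp, from 0.637 to 0.814 for Csrnp1, from 0.600 to 0.738 for Arl4d and from 0.467 to 0.546 for Plekhf1. When, much as in the deposited table, every group with a CV of at least 20% lost the mouse farthest from its median, 2 of the 8 genes were called by limma in co-treated mice, Pabpc5 lower (-0.72, adjusted p 0.0318) and Plekhf1 higher (0.68, adjusted p 0.0104). That step removes spread by its construction, and for Pabpc5 it removed VERCUR-CD 2.

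**Figure D4:**
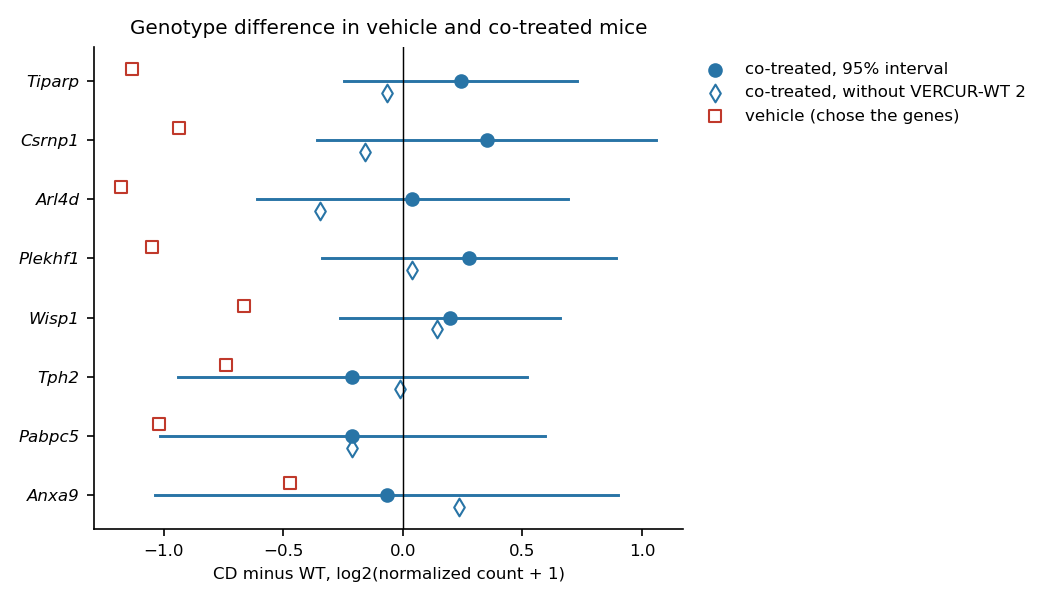
CD minus WT difference of log2(normalized count + 1) (horizontal axis) for the 8 genes (vertical axis). Filled circles with 95% intervals are co-treated mice over 3 against 3, diamonds the same without VERCUR-WT 2, and open squares the vehicle mice that chose the genes. All 8 intervals of the co-treated mice include 0.

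Over the 12 mice, Tiparp, Csrnp1, Arl4d and Plekhf1 varied together, and the other 4 genes did not join them. Pearson's r of log2(normalized count + 1) ran from 0.761 (Csrnp1 and Plekhf1) to 0.914 (Csrnp1 and Arl4d) over the 6 pairs of these 4 genes, with Spearman's rho from 0.853 to 0.979. These 4 genes were set apart after their values were seen, and the mice share groups and library scaling, so the correlations are a description. For the deviations from the group means, which do not hold the group differences, r ran from 0.596 to 0.897, and from 0.462 to 0.820 without VERCUR-WT 2. Wisp1 had r from 0.470 to 0.646 with these 4 genes but from -0.173 to 0.250 for the deviations. Tph2, Pabpc5 and Anxa9 had deviations that correlated with those of the 4 genes between -0.466 (Csrnp1 and Tph2) and 0.189 (Plekhf1 and Tph2).

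The genes whose values were most like those of each member over the 12 mice were taken from all genes tested. For Tiparp they were Arc (r = 0.925, rho = 0.923), Sik1 (r = 0.924) and Trib1 (r = 0.921). For Csrnp1 they were Arc (r = 0.974, rho = 0.993), Insm1 (r = 0.963) and Dusp1 (r = 0.945). Arc codes for a synaptic cytoskeletal protein, Sik1 for a kinase induced by cyclic AMP and Dusp1 for a phosphatase of MAP kinases. For Arl4d they were Sik1 (r = 0.953, rho = 0.944), Gadd45b (r = 0.948) and Fgf18 (r = 0.948). For Plekhf1 they were Adipor2 (r = 0.957, rho = 0.958), Pim3 (r = 0.948) and Sgk1 (r = 0.945), of which Sgk1 is a kinase induced by glucocorticoids. The 99th percentile of r over all genes was 0.793 for Tiparp, 0.738 for Csrnp1, 0.752 for Arl4d and 0.763 for Plekhf1. For Wisp1 the genes most alike were Frmd6 (r = 0.936), Slc7a6 (r = 0.925) and Rnf19a (r = 0.924), and for Pabpc5 they were Klf3 (r = 0.918), Gm26606 (r = 0.908) and Gm340 (r = 0.902). For Tph2 they were Gm48508 (r = 0.909), Prkcz (r = 0.900) and Cystm1 (r = 0.874), and for Anxa9 they were Lppos (r = 0.867), Gm48529 (r = 0.860) and Sugct (r = 0.858). The low counts of Tph2, Pabpc5 and Anxa9 carry counting error into these values, and a weak correlation among them is no finding.

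The mean log2 level of 19 immediate early genes was 10.7, 11.3 and 11.03 in the VEH-WT mice and 9.39, 10.2 and 10.1 in the VEH-CD mice. It was 10.5, 9.69 and 10.7 in the VERCUR-WT mice and 10.5, 10.0 and 10.3 in the VERCUR-CD mice. The 2 lowest mice were thus VEH-CD 1 and VERCUR-WT 2. Pearson's r with this mean over the 12 mice was 0.951 for Arl4d, 0.924 for Tiparp, 0.882 for Csrnp1, 0.771 for Wisp1 and 0.759 for Plekhf1, with rho of 0.958, 0.874, 0.965, 0.671 and 0.755. It was 0.325 for Pabpc5, 0.186 for Tph2 and 0.0474 for Anxa9. For the deviations from the group means r was 0.885 for Arl4d, 0.849 for Tiparp and 0.847 for Csrnp1, and 0.827, 0.770 and 0.782 without VERCUR-WT 2. Plekhf1 had 0.531 and 0.389, and Wisp1 0.543 and 0.572. Tph2 had -0.566 and -0.488, the opposite sign, Pabpc5 -0.0826 and -0.103, and Anxa9 -0.183 and 0.0400. The part of the immediate early genes in the values of the 8 genes was not tested.

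**Figure D5:**
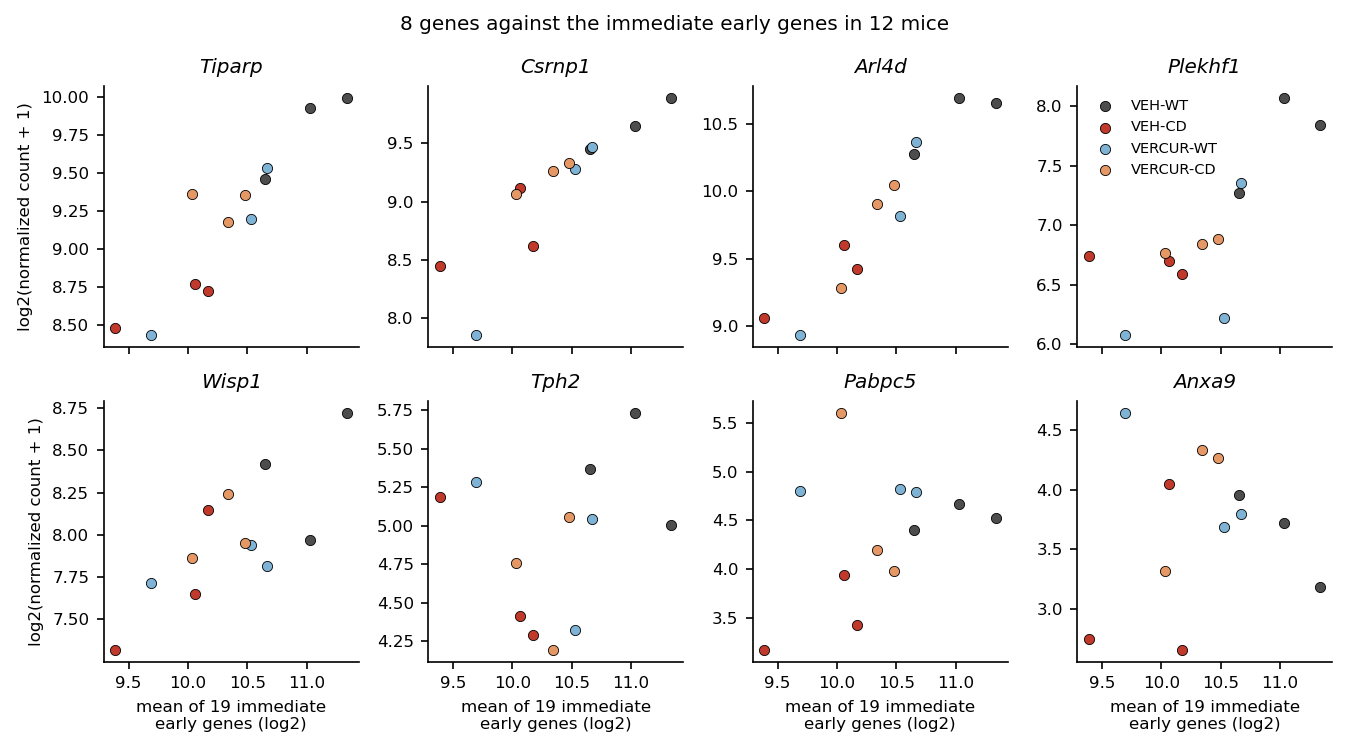
log2(normalized count + 1) of each of the 8 genes (vertical axis) against the mean log2 level of 19 immediate early genes (horizontal axis), with 1 point for each of 12 mice, coloured by group. Arl4d, Tiparp and Csrnp1 lie close to a line (r = 0.951, 0.924 and 0.882), and Tph2, Pabpc5 and Anxa9 do not (r = 0.186, 0.325 and 0.0474).

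In both comparisons 12 lists were tested, which hold 122 genes tested and none of the 8. They are relatives of the 8 genes by family or pathway, immediate early genes and glucocorticoid-responsive genes. No gene of these lists was called by limma in either comparison, although leaving out VEH-WT 1 gave 4 calls in the vehicle comparison, VEH-CD 2 or VERCUR-CD 2 gave 3 each and VERCUR-WT 2 gave 1. In VEH-CD against VEH-WT mice 33 of the 122 had an unadjusted p under 0.05, where 11.8% of all genes did. Of these 33, 13 were immediate early genes and 7 were glucocorticoid-responsive genes. The lists were chosen with earlier results of these data known, so these counts are no independent support. The lowest adjusted p was 0.0570 by limma, and 0.257% of all genes were called in either direction. In VERCUR-CD against VERCUR-WT mice 5 of the 122 had an unadjusted p under 0.05, with a lowest adjusted p of 0.981.

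All 19 immediate early genes stood below 0 in VEH-CD minus VEH-WT mice, 13 of them with an unadjusted p under 0.05, and the median was -1.10 on the log2 scale where all genes had -0.0028. Egr2, a zinc finger transcription factor, had the lowest value, -2.37 (SE 0.519, adjusted p = 0.105 by limma), and Nr4a2, an orphan nuclear receptor, the highest, -0.25 (SE 0.314, adjusted p = 0.777). Egr4 had the lowest adjusted p, 0.0570, at -1.21. Under VERCUR 10 of the 19 stood below 0 with a median of -0.0088, and without VERCUR-WT 2 this was 16 of the 19 with a median of -0.38. In both cases none had an unadjusted p under 0.05 or was called by limma. Of 11 glucocorticoid-responsive genes 9 stood below 0 in the vehicle comparison and 7 had an unadjusted p under 0.05, with a median of -0.48. The circadian gene Per1 stood lowest at -0.89 (adjusted p = 0.213) and the metallothionein Mt1 highest at 0.06. Their median under VERCUR was 0.02, and 0.06 without VERCUR-WT 2. Part of these genes also answer to neuronal activity, and Sgk1 is a gene of the deposited table, so that its vehicle value is not independent of that choice. Both lists were chosen with earlier results of these data known, so their vehicle values are no independent test.

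The relatives of the 8 genes by family or pathway had vehicle medians nearer 0, apart from the 3 CCN proteins (-0.27). Of 7 genes of the aryl hydrocarbon receptor pathway of Tiparp 4 stood below 0, with a median of -0.02, from Cyp1b1 (-0.29) to Ahrr (0.47), and 0 had an unadjusted p under 0.05. Of 12 genes of the PARP family 6 stood below 0, from Parp14 (-0.20) to Parp16 (0.40), with a median of 0.0030. The Csrnp1 relatives Csrnp2 (-0.22), Csrnp3 (-0.10), Axin1 (-0.10) and Axin2 (-0.13) were all below 0, at a median of -0.11, and 1 of these 4 had an unadjusted p under 0.05. For Arl4d, 6 of 11 ARF and ARL4 GTPases and cytohesins stood below 0, from Cyth3 (-0.20) to Cyth4 (0.22), with a median of -0.03. The near relatives Arl4a (0.18) and Arl4c (-0.15) differed in sign.

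Of 20 FYVE domain proteins, the family of Plekhf1, 13 stood below 0 with a median of -0.09, from the phosphatase Mtmr4 (-0.31) to Zfyve19 (0.07). Of 3 CCN proteins measured beside Wisp1, Cyr61 stood at -1.23 (SE 0.415, adjusted p = 0.275), Ctgf at -0.27 and Nov at 0.31. Cyr61, also named Ccn1, is itself an immediate early gene of growth factor signalling. Of 11 Wnt target genes 8 stood below 0 with a median of -0.02, from Nkd2 (-0.46) to Notum (0.18). Of 9 genes of serotonin synthesis and clearance, 3 stood below 0 with a median of 0.04, from Gch1 (-0.58, adjusted p = 0.268), which makes the cofactor of Tph2, to Tph1 (0.38). Of 7 genes of poly(A) binding 0 stood below 0, from Paip2 (0.02) to Pabpc4l (0.19), and of 9 annexins 6 did, from Anxa3 (-0.18) to Anxa8 (0.54).

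Under VERCUR the medians of these 10 lists of relatives lay between -0.06 (annexins) and 0.12 (poly(A) binding), and the lists with any gene at an unadjusted p under 0.05 were poly(A) binding (2), the Wnt targets (2) and serotonin synthesis (1). Without VERCUR-WT 2 the medians lay between -0.19 (CCN proteins) and 0.08 (poly(A) binding), with such genes in poly(A) binding (2) and the CCN proteins (1). Among cell type markers, the 6 interneuron genes all stood below 0 in the vehicle comparison, with a median of -0.22. Of these, 3 had an unadjusted p under 0.05, and the lowest adjusted p was 0.157 by limma. Their summed levels were 37890 to 40990 in VEH-WT and 33830 to 35900 in VEH-CD mice. These did not overlap. Of single genes tested 11.4% were lower in VEH-CD mice without overlap, a share that was not computed for sums of genes. Under VERCUR 5 of the 6 stood below 0 with a median of -0.05, and 0 had an unadjusted p under 0.05 by limma. Their sums then overlapped, at 34960 to 37270 in VERCUR-WT and 35250 to 35660 in VERCUR-CD mice. In the vehicle comparison, excitatory neuron (median -0.02), astrocyte (-0.03), endothelial (0.0077) and striatal (0.02) markers lay near 0, with 0 or 1 gene each at an unadjusted p under 0.05. Oligodendrocyte (-0.12, all 5 below 0), microglial (0.16), meningeal (-0.06), choroid plexus (-0.16) and red blood cell (0.36, 0 of 5 below 0) markers had 0 such genes. The part of these cell types in the 8 genes was not tested.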

How the data were processed

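Cortical RNA from 12 mice was sequenced. Groups came from the sample labels, 3 mice each, and columns were matched to mice by name. The authors used STAR 2.5.3a for mapping to GRCm38 and deposited, per gene and mouse, counted reads after division by 1 scaling factor a mouse. These normalized counts are not raw counts and are treated as another unit than counts. The counting program, the annotation release and the factors are not given in the sources used here. Low values are whole multiples of a step (100% of them, within 0.1 of a step), from which the counted reads follow. The authors also deposited 2 tables of values scaled to VEH-WT mice. The one of 100 genes was used (9 positions a gene, blanks being mice left out), the other was not.

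Values were analysed as log2(normalized count + 1) in limma 3.58.1 under R 4.3.3, with an intensity trend, in 1 fit of the 12 mice with 4 group means. Genes needed a mean of 10 or more, which 17111 genes and all 8 described here passed. Tests were two-sided and p-values were adjusted by Benjamini-Hochberg across all genes tested. A gene was called at an adjusted p under 0.05 with a fold over 1.25 or under 0.75. The labels do not say whether mice of a group came from separate litters, so p-values measure the spread between these mice. An exact permutation test of 3 mice against 3 cannot go below p = 0.1 and was not used. The fit was tested on simulated data.

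The 8 genes, the gene lists, the cell type markers and the motifs were chosen with earlier results of these data known. The genes named are the 8, the 3 genes most alike to each by Pearson's r, and the highest and lowest of each list, and others named were chosen after their values were seen. Gene positions are those of the GENCODE annotation of GRCm38, and promoters are from RefSeq on GRCm38.p6. Replicate numbers were checked for pairing. Alternatives to the fit were a pseudocount of 0.1 or 5, a mean of at least 50 or no filter, quantile normalization, centring on the median ratio, a fit of the 6 compared mice alone, no trend, a block for the replicate number, other thresholds, dropping deviating values at a CV of 20% or more, and leaving out each mouse. Likeness without VERCUR-WT 2 was added after the data were seen.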

Additional observations from a re-analysis of the deposited data

How the results depend on the processing

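With 3 mice a group, standard errors of the 8 genes ran from 0.213 (Wisp1) to 0.445 (Anxa9) on the log2 scale, and differences within the intervals given could not be told from 0. The number of the 8 genes called lower under VERCUR was 0 in the main analysis and under every alternative, leaving out each mouse included, except that dropping the most deviating mouse of a group at a CV of 20% or more gave 1. The 2 genes it called are named in the report. The direction of Plekhf1 and Wisp1 was the same in all 22 alternatives. That of Arl4d turned in 3 of 22 and that of Anxa9 in 3 of 21. It turned in 2 for Tiparp and Csrnp1 and in 1 for Tph2 and Pabpc5. Several alternatives cannot change this difference between group means: another filter, no trend, the replicate block, the compared mice alone, or a vehicle mouse left out. In these Plekhf1 stayed at 0.28 and Wisp1 at 0.20. The totals of 22 and 21 therefore overstate how stable the directions were.

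The number of list genes called in VEH-CD against VEH-WT mice, 0 in the main analysis, was 26 with those mice dropped, a step that lowers the spread by construction. It ranged from 0 to 4 when single mice were left out: 4 without VEH-WT 1, 3 without VEH-CD 2, 3 without VERCUR-CD 2, 1 without VERCUR-WT 2 and 0 without any other. The cause was not tested. The median VEH-CD value of the 8 genes, 0.505 of VEH-WT, ran from 0.447 to 0.506 over the other settings and from 0.460 to 0.527 when single vehicle mice were left out.

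The labels do not say whether mice with the same replicate number share a litter or a day. Deviations of mice with the same number correlated between -0.347 and 0.267, which cannot show whether they share one. With the replicate block 0 of the 8 genes were called under VERCUR (lowest adjusted p 0.998) and 1 list gene in the vehicle comparison (lowest adjusted p 0.0306). For the 4 genes that varied together the median r was 0.879 over the mice, 0.803 for deviations from the group means and 0.720 without VERCUR-WT 2, the last chosen after seeing the data. The planned count tests of edgeR and DESeq2 on the whole reads behind the normalized counts were not run. The deposited values, written with decimal commas, had been entered as another unit than counts, although whole reads could be recovered from them.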
